A study of Oryzias latipes with 84 samples.

Results

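The pituitaries of female and male medaka (*Oryzias latipes*) were compared near 70 days post-fertilization (dpf). Of the age windows with both sexes, this one holds the most females. The comparison holds 14 of the 84 libraries of the series and was chosen from the labels for age and sex: 10 females of 64 to 74 dpf (4 ages, 64, 66, 72 and 74) and 4 males that all were of 70 dpf. Each library is bulk RNA-seq of the pituitary of 1 fish, and every fish, female or male, was of the strain labelled d-rR lhb:GFP, in which a green fluorescent protein (GFP) cassette reports the gene of the beta subunit of luteinizing hormone. No fish was treated. By the labels the females measured 10 to 20 mm in body length and the males 17.5 to 18.5 mm. Fish were raised in small tanks by egg collection date and the males are of 1 labelled age, so that sex cannot be told apart from rearing group. Fish are called by their labels (medaka135 is a male), and levels are in CPM, a gene's counts per 1000000 counts of its library, unless another scale is named.

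The teleost pituitary makes most of its hormones in separate cell types. Melanotropes and corticotropes make proopiomelanocortin, which is cut into alpha-Msh in the former and Acth in the latter. Lactotropes make prolactin, somatolactotropes somatolactin and somatotropes growth hormone. Thyrotropes and gonadotropes make Tsh, Fsh and Lh, each of which joins its own beta subunit to a common alpha subunit, and Fsh and Lh drive the gonads. In a whole gland, fewer cells of a type and less RNA per cell cannot be told apart.

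All 14 libraries carried the 8 hormone genes of a pituitary, and female libraries held 4097731 to 7448136 counts and male ones 6304435 to 9348785. At an equal depth of 4097731 counts, 22047 to 23118 genes were detected per female and 18724 to 21395 per male, with no overlap. The difference of the means was 2708 genes (two-sided exact permutation test over fish, p = 0.0020, the smallest that 10 against 4 fish can give, adjusted p = 0.0060 over 3 measures). One male stood apart from the other males: in medaka135 the 8 hormone genes took 9.00% of the counts, against 31.8% to 35.8% in the other males. Genes with a mean under 10 CPM in the other 70 libraries of the series took 6.38% of its counts, against 1.60% to 2.13% in the other males and 2.94% to 6.40% in the females. The hormone share of the females ran from 9.06% in medaka26 to 27.4%, so that medaka135 was not alone in its low share among the 14 fish. Results without medaka135 keep medaka26, except where the females were limited to those near the males in length. With all 14 fish neither share differed between the sexes beyond its spread (females minus males -5.86 percentage points, exact p = 0.25, and 1.65 points, exact p = 0.11). Without medaka135 the differences were -12.0 and 2.78 points, each with an exact p = 0.0070, the smallest that 10 against 3 fish can give. Medaka135 was set apart by these same shares, so that these p do not test the differences apart from that choice. The same limit holds for the calls of *pomca*, *tshba* and the melanotrope genes without it. RNA integrity numbers were 9.6 to 10 in the males and 8.3 to 10 in the 7 females that had one. The part of these library measures in the results on genes was not tested, and each result that rests on medaka135 is given with and without it.

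**Figure D1:**
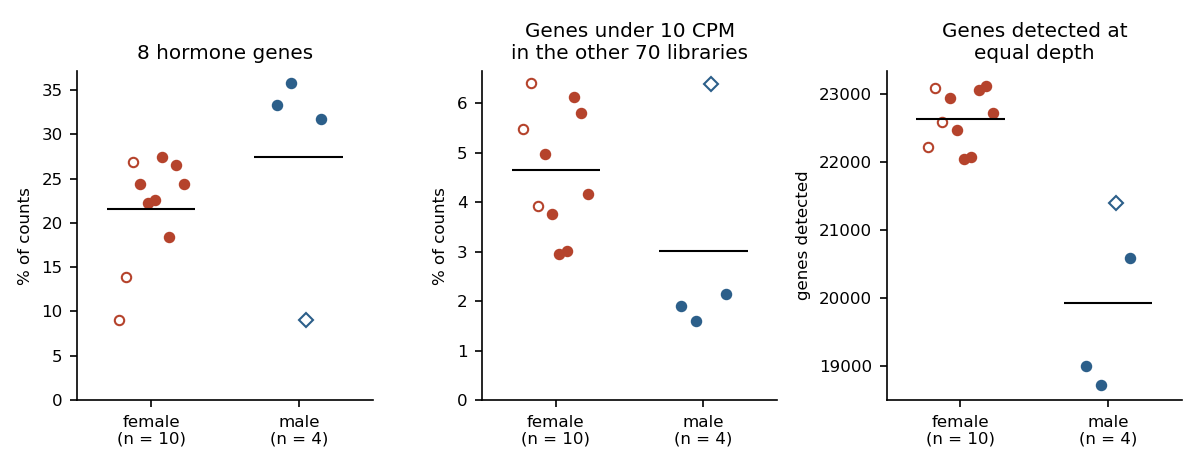
Library measures in each fish: the share of counts in the 8 hormone genes and in genes with a mean under 10 CPM in the other 70 libraries (both in % of counts), and the number of genes detected at equal depth (axis not from 0). Points are fish, open circles the 3 females of 13 mm or less, the open diamond male medaka135, lines the means. All 10 females lie above the 4 males in genes detected, and medaka135 lies apart from the other males in both shares.

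Of 4 genes of melanotropes, 1 was called lower in females with all 14 fish and 3 without medaka135. Of these, *oacyl* was called lower in females with all 14 fish, and without medaka135 *oacyl*, *crhbp* and *pcsk2* were, while *pax7* was not called in either. The call rule was an adjusted p under 0.05 (edgeR's quasi-likelihood test, trimmed mean of M-values or TMM scaling, Benjamini-Hochberg adjustment over all genes tested). By that rule 18.5% of the 20333 genes tested were called, 7.42% as lower and 11.1% as higher in females. Without medaka135, 4.67% of 20722 genes were called lower and 19.1% higher. The share called lower went with the level in the other 70 libraries. At 100 to 1000 CPM it was 20.9% with all 14 fish and 13.4% without medaka135. At 1000 CPM and over it was 25.5% and 15.7%. At 10 to 100 CPM, where *pax7* lay, it was 8.99% and 6.73%.

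*oacyl* encodes an acyltransferase that marks melanotropes in medaka. Its levels in the males were 1247, 1624, 328 and 1501 CPM in medaka133 to medaka136, and the females ran from 362 to 1441 with a median of 726 CPM. Medaka135 was below every female, the other 3 males were above 9 of the 10 females, and only female medaka82 reached them. The log2 fold change, females against males, was -1.20 (SE 0.41, adjusted p = 0.0487), and -1.51 (SE 0.37, adjusted p = 0.0077) without medaka135. The first of these calls was lost when any of 11 of the 14 fish was left out, with adjusted p up to 0.158, and with body length as a covariate (-1.09, adjusted p = 0.124). With the number of genes detected as a covariate, which itself does not overlap between the sexes, the direction turned (0.85, adjusted p = 0.583), as it did for *crhbp* (1.03, adjusted p = 0.532), *pcsk2* (0.68, adjusted p = 0.717) and *pomca* (0.95, adjusted p = 0.634).

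*crhbp* encodes the protein that binds corticotropin-releasing hormone. It was at 413, 577, 109 and 472 CPM in the males and at 79.9 to 509 with a median of 161 CPM in the females. The pattern over fish was like that of *oacyl*: medaka82 was the one female within the range of the 3 higher males, and medaka135 lay among the low females. Its log2 fold change was -1.35 (SE 0.47, adjusted p = 0.0564) with all fish and -1.66 (SE 0.46, adjusted p = 0.0154) without medaka135. With all 14 fish edgeR thus did not call it, while DESeq2 (-1.34, adjusted p = 0.0261) and voom with quality weights (-1.88, adjusted p = 0.0193) called it lower. DESeq2 called 8.61% of genes lower, and voom 2094 of 20333. With each of the 14 fish left out in turn, edgeR called *crhbp* in 3 fits and not in 11. With body length as a covariate over all 14 fish, 0 of the 4 melanotrope genes were called. The prohormone convertase gene *pcsk2*, whose product takes part in cutting proopiomelanocortin, was at 1390, 1737, 355 and 2092 CPM in the males and at 462 to 2244 with a median of 1238 CPM in the females. Without medaka135 the male range of *pcsk2* still lay within the female range, and of the females only medaka22, medaka27 and medaka82 reached it. The log2 fold change was then -0.997 (SE 0.35, adjusted p = 0.0453), against -0.68 (SE 0.39, adjusted p = 0.226) with medaka135. *pax7*, a transcription factor gene of melanotropes, was at 16.8 to 38.9 CPM in the males and at 17.8 to 89.8 CPM in the females (log2 fold change -0.31, SE 0.33, adjusted p = 0.516).

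The precursor gene itself, *pomca*, had a like pattern over fish. It stood at 92793, 119491, 23269 and 120984 CPM in medaka133 to medaka136, and at 33091 to 134349 with a median of 50041 CPM in the females. The 3 higher males were above every female except medaka82, the highest of the 14, and medaka135 was the lowest of the 14. The log2 fold change of *pomca* was -1.17 (SE 0.48, adjusted p = 0.0945) with all fish and -1.49 (SE 0.47, adjusted p = 0.0290) without medaka135. With DESeq2 on all 14 it was called lower (-1.16, adjusted p = 0.0310), where 8.61% of genes were called lower.

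No hormone gene was called among the 8 with all 14 fish by edgeR. Only *pomca* had an unadjusted p under 0.05, DESeq2 called it as the 1 gene of the 8, and it was the 1 call without medaka135. The median log2 fold change of the 8 was -0.58, against 0.05 over all genes tested and -0.64 over all genes of at least 1000 CPM in the other 70 libraries. With body length as a covariate the median of the 8 was -0.04, and with females of 15.5 to 20 mm alone it was -0.26. A p that misses the threshold does not show equal levels here, since the standard errors ran from 0.42 to 0.78 on the log2 scale.

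Prolactin, which takes part in water and salt balance in fish, was the hormone transcript with the next largest difference. *prl* was at 201951, 175701, 49172 and 156454 CPM in the males and at 24964 to 181511 with a median of 100110 CPM in the females. Of the females, medaka22, medaka71 and medaka23 reached the range of the 3 higher males, and the lowest was medaka26, the shortest fish (10 mm). The log2 fold change was -0.96 (SE 0.50, adjusted p = 0.178), and -1.24 (SE 0.51, adjusted p = 0.0809) without medaka135.

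Somatolactin and growth hormone, both related to prolactin in sequence, overlapped throughout. *smtla* was at 5764, 9148, 3594 and 11697 CPM in the males and at 1855 to 15724 with a median of 5451 CPM in the females (log2 fold change -0.64, SE 0.49, adjusted p = 0.364). *gh* was at 24052, 36707, 9287 and 15546 CPM in the males and at 9501 to 63296 with a median of 26894 CPM in the females (-0.04, SE 0.49, adjusted p = 0.965). For *smtla* both the lowest and the highest of the 14 fish were females.

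The genes of the gonadotropin beta subunits were spread widely among the females. *fshb*, for the beta subunit of Fsh, ran from 330 to 12680 with a median of 2883 CPM in the females, and was 3386, 7524, 2222 and 4754 CPM in the males. *lhb* ran from 133 to 2177 with a median of 594 CPM in the females and was 762, 1545, 265 and 818 CPM in the males. The lowest females were the short ones in part: medaka26 and medaka27 (10 and 11 mm) had 330 and 467 CPM of *fshb*, but medaka22, of 19.5 mm, had 635. The log2 fold changes were -0.52 (SE 0.78, adjusted p = 0.665) for *fshb* and -0.66 (SE 0.69, adjusted p = 0.518) for *lhb*.

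*tshba*, for the beta subunit of Tsh, was at 2315, 3743, 1456 and 4708 CPM in the males and at 1606 to 7673 with a median of 2878 CPM in the females. The alpha subunit gene *cga* was at 1697, 3793, 746 and 2657 CPM in the males and at 533 to 10544 with a median of 2731 CPM in the females. In both the highest fish was a female (medaka23 for *tshba*, medaka54 for *cga*) and the male range lay within the female range except for the *tshba* value of medaka135. Neither was called (*tshba* -0.39, SE 0.42, adjusted p = 0.535, *cga* -0.02, SE 0.63, adjusted p = 0.985).

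**Figure D2:**
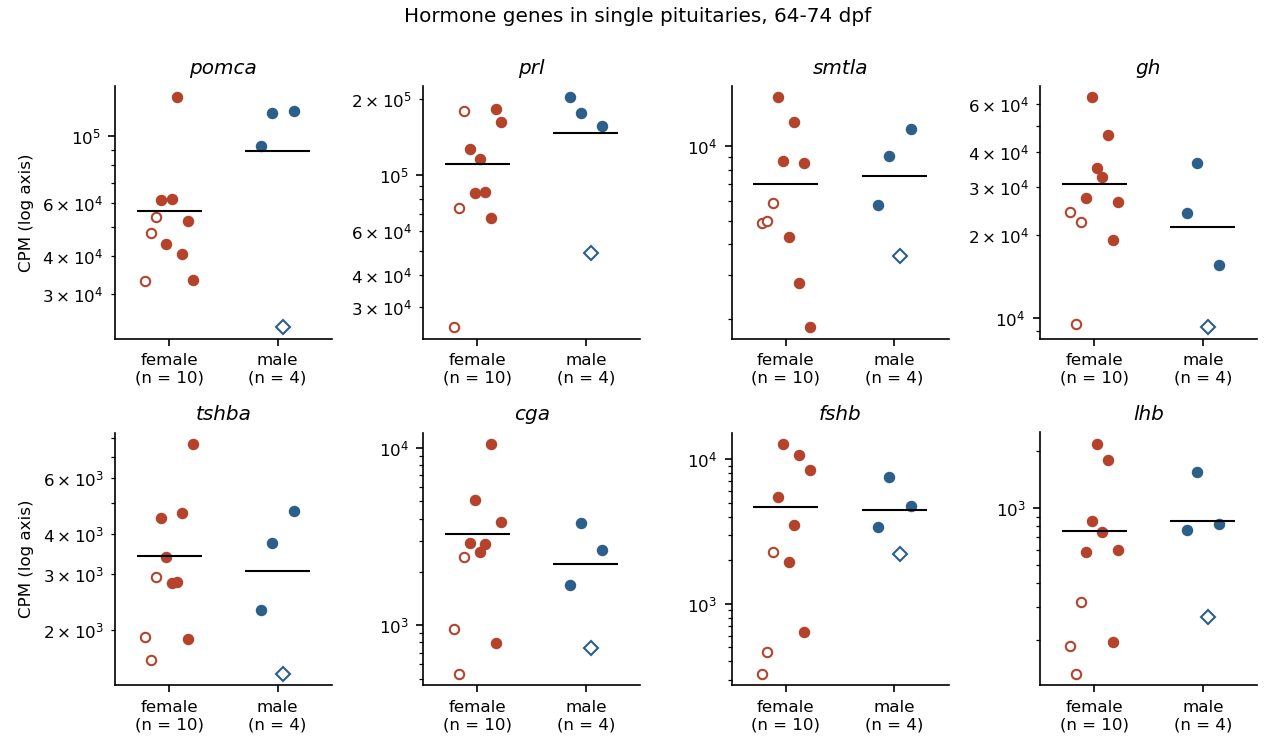
CPM of the 8 hormone genes in each fish (log axes). Points are fish, open circles the 3 females of 13 mm or less, the open diamond male medaka135, lines the means. The 3 other males lie above all females but medaka82 in *pomca*, while in *fshb*, *lhb*, *tshba*, *cga*, *gh* and *smtla* the sexes overlap.

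The GFP cassette, which the *lhb* promoter drives in this line, was at 2335, 7838, 1273 and 4574 CPM in the males and at 695 to 19768 with a median of 3334 CPM in the females (log2 fold change -0.41, SE 0.63, adjusted p = 0.675). Medaka54, high in *cga* and *lhb*, was its highest fish. The 4 genes that regulate hormone cells or their inputs were not called in either direction. They are *pou1f1* (a transcription factor of the lactotrope, somatotrope and thyrotrope lineages), *gnrhr2* (a receptor of gonadotropin-releasing hormone), *nr5a1b* (a nuclear receptor that marks gonadotropes) and *cyp19b* (brain aromatase, which makes estrogens). Their log2 fold changes ran from -0.38 (*nr5a1b*, SE 0.46) to -0.03 (*gnrhr2*, SE 0.47), with adjusted p from 0.584 to 0.972, none had an unadjusted p under 0.05, and DESeq2 called none. Aromatase ran from 1064 to 3923 with a median of 3374 CPM in the females and was 2153, 4029, 844 and 2783 CPM in the males. The low values of *cyp19b* were those of medaka26 among females and medaka135 among males.

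Of the 4 markers of other cells, *CD74* was called lower in females, and that call rested on 1 fish. Its product is the chaperone of MHC class II molecules in antigen-presenting cells. It was at 402, 500, 6436 and 329 CPM in the males and at 243 to 763 with a median of 371 CPM in the females. Medaka135 was the 1 fish far above the rest, and the other 3 males lay within the female range. The log2 fold change was -2.89 (SE 0.59, adjusted p = 0.0077) with it and -0.62 (SE 0.30, adjusted p = 0.135) without it, and DESeq2 gave no adjusted p to the gene. In medaka135 a high *CD74* thus went with a hormone share of 9.00%, and the part of antigen-presenting cells in its other values was not tested.

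The globin genes, which report red blood cells, were not called. *gb* was at 905, 831, 836 and 1775 CPM in the males and at 163 to 3666 with a median of 2250 CPM in the females (log2 fold change 0.35, SE 0.57, adjusted p = 0.694). *hbbe2* was at 2244 to 4147 CPM in the males and at 454 to 9290 CPM in the females (0.26, SE 0.56, adjusted p = 0.773). Both globins varied more among the females than among the males. *cdc45*, a gene of DNA replication in dividing cells, was at 9.95 to 27.6 CPM in the males and at 8.55 to 22.8 CPM in the females (-0.80, SE 0.32, adjusted p = 0.0859).

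Of 4 further genes whose models the study adjusted, *eef1a* and *fth1a* were called lower in females. Of all genes of 1000 CPM and over in the other 70 libraries, 25.5% were called lower. The elongation factor gene *eef1a* was at 4598, 5204, 5086 and 4510 CPM in the males and at 3191 to 4956 with a median of 3962 CPM in the females. The ferritin gene *fth1a* was at 1517, 1728, 3140 and 1878 CPM in the males and at 1060 to 2314 with a median of 1448 CPM in the females. The groups overlapped in both genes, and medaka135 was the highest fish for *fth1a*. The log2 fold changes were -0.83 (SE 0.26, adjusted p = 0.0395) for *eef1a* and -0.99 (SE 0.29, adjusted p = 0.0284) for *fth1a*. Both calls were lost without medaka135 (-0.79, adjusted p = 0.0627, and -0.69, adjusted p = 0.0988), and that of *eef1a* was lost with any of 10 of the 14 fish left out, that of *fth1a* with any of 3. They were also lost with body length as a covariate (-0.86, adjusted p = 0.0643, and -0.88, adjusted p = 0.0791) and with library totals alone (-0.26, adjusted p = 0.317, and -0.43, adjusted p = 0.154). Other settings kept calls in this list. With females of 15.5 to 20 mm against all 4 males 3 of the 4 genes were called lower, and with DESeq2 2. With length as a covariate 1 of the 4 was called lower, which was neither *eef1a* nor *fth1a*. The midkine gene *mdkb* and *mcee*, for methylmalonyl-CoA epimerase, had -0.56 (adjusted p = 0.172) and -0.59 (adjusted p = 0.0846).

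The size of these values, and the sign of some genes that were not called, depended on the scaling. The TMM factors were 0.715 to 0.810 in the males and 0.903 to 1.43 in the females, with no overlap. With library totals alone the median log2 fold change over all genes was 0.64, against 0.05 with TMM. On that scale *oacyl* had -0.68 (adjusted p = 0.136) and *pomca* -0.66 (adjusted p = 0.214). Without medaka135 *oacyl* (-0.995, adjusted p = 0.0159), *crhbp* (-1.16, adjusted p = 0.0272) and *pomca* (-0.98, adjusted p = 0.0459) were called lower there too. *pcsk2* (-0.46, adjusted p = 0.241) was not. In that fit 41 of the 20722 genes tested were called lower and 7902 higher. The values of *gh*, *tshba*, *fshb*, *cga*, *pax7*, *pou1f1*, *gnrhr2*, *nr5a1b*, *cyp19b* and the GFP cassette, none of them called, were below 0 with TMM and above 0 with library totals alone.

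**Figure D3:**
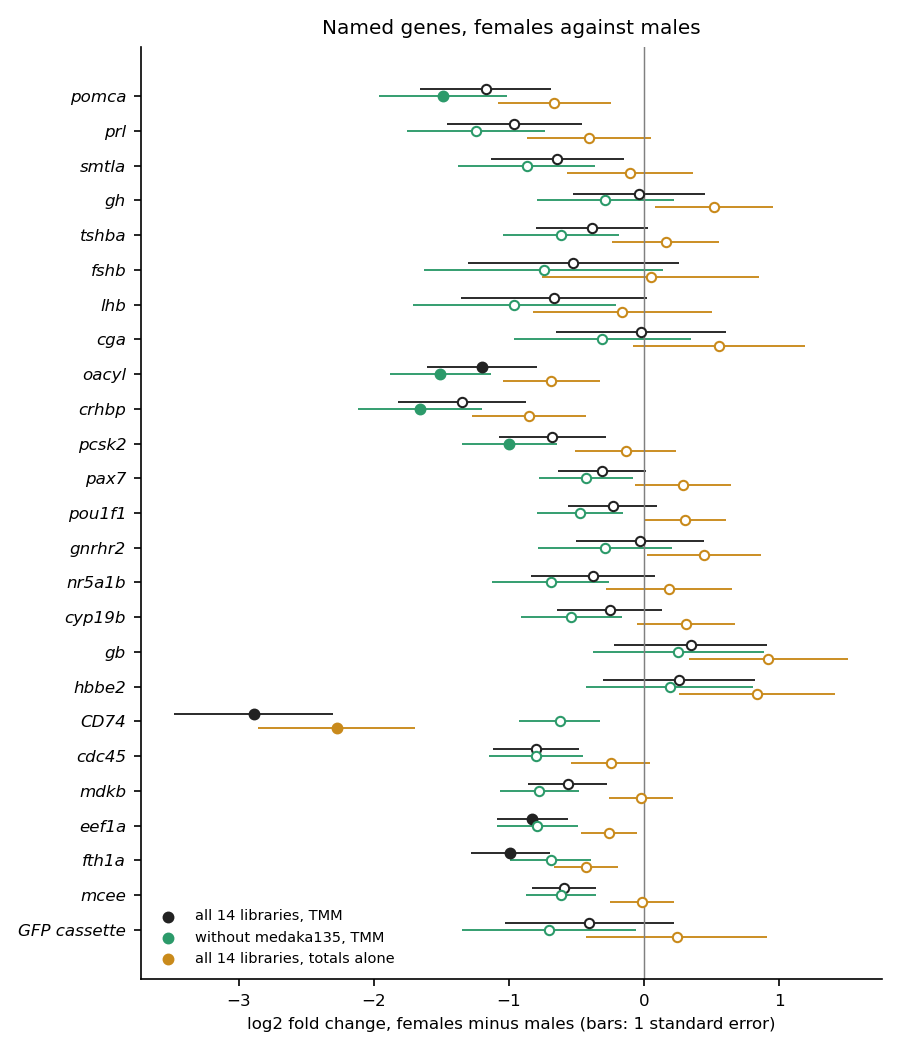
Log2 fold change, females against males, of the 24 named genes and the GFP cassette, with 1 standard error, in 3 fits: all 14 libraries with TMM, without medaka135 with TMM, and all 14 with library totals alone. Filled symbols have an adjusted p under 0.05. *oacyl*, *CD74*, *eef1a* and *fth1a* are filled with all 14, *pomca*, *oacyl*, *crhbp* and *pcsk2* without medaka135, *CD74* also with totals alone, which shift every gene shown to the right.

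Over all genes, 2248 were called higher and 1508 lower in females, and 7246 had an unadjusted p under 0.05. Higher calls were thus 59.9% of all calls with TMM, 80.3% without medaka135 and 95.9% with library totals alone (6979 higher and 302 lower). Without medaka135, 3951 genes were called higher and 967 lower. Of the genes called higher with all fish, 2054 were called higher without it too (91.4% of the 2248 and 52% of the 3951). For the genes called lower the shared number was 622 (41.2% of the 1508 and 64.3% of the 967). On TMM-scaled levels medaka135 was the highest of the 14 libraries for 1074 of the 1508 genes called lower and another male for 428. Of the genes tested with a male highest, called or not, medaka135 was the highest in 52%.

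The direction of the calls went with the level of the gene. Levels here are the means of the other 70 libraries, which the comparison did not use. Of 8178 genes of 1 to 10 CPM, 1699 were called higher (20.8%) and 284 lower (3.47%) in females. Of 10818 genes of 10 to 100 CPM, 505 were higher (4.67%) and 972 lower (8.99%). Of 1137 genes of 100 to 1000 CPM, 4 were higher and 238 lower (20.9%), and of the 51 genes of at least 1000 CPM, 0 were higher and 13 lower. Low genes were thus called higher and abundant genes lower. A low gene that passed the filter on low counts only through 1 sex had to differ. The median log2 fold change fell from 0.70 at 1 to 10 CPM to -0.64 at 1000 CPM and over, and without medaka135 from 1.16 to -0.70. With totals alone it ran from 1.31 to -0.10, so that the slope stayed and the zero moved. The number of genes detected was also higher in every female than in any male. Its part in the slope was not tested and cannot be told apart from sex here. With that number as a covariate 96 genes were called higher and 1458 lower, a setting chosen after the data were seen. So was a fit of only the 12006 genes of at least 10 CPM, scaled on those genes, which called 528 higher and 403 lower.

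**Figure D4:**
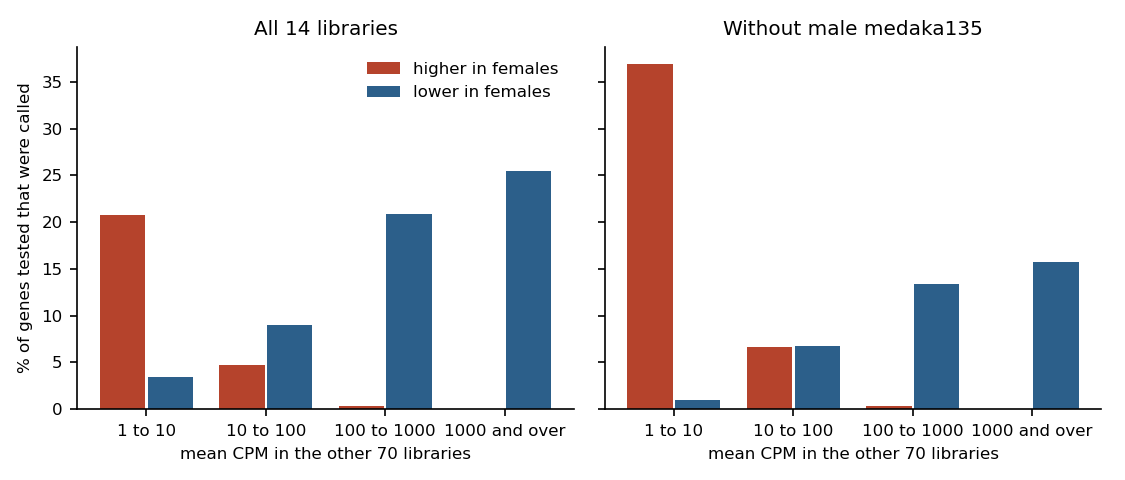
Percent of the genes tested that were called higher or lower in females, by mean CPM in the other 70 libraries, with all 14 libraries and without male medaka135. At 1 to 10 CPM 20.8% were higher and 3.47% lower, and at 100 to 1000 CPM 20.9% were lower. The same order of bars holds without medaka135, though at 10 to 100 CPM they are nearly level (6.61% higher and 6.73% lower). Lower calls are fewer there at each level, and higher calls are more only below 100 CPM.

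In CPM, the groups did not overlap for 2472 genes with all females above all males (12.2% of those tested), and for 4 genes with all females below all males (0.0197%). Without medaka135 they were 4607 (22.2%) and 14 (0.0676%). On TMM-scaled CPM of all 14 fish they were 1033 (5.08%) and 340 (1.67%), so that the low number below depends on scaling by library totals. The 4 genes with the smallest p of those with separate groups, 2 a direction, had identifiers that no source used here pairs with a name. ENSORLG00000024846 was at 7.12 to 21.5 with a median of 11.7 CPM in the females and at 1.07, 0.948, 1.43 and 1.32 CPM in the males (log2 fold change 2.80, SE 0.35, adjusted p = 0.0034). ENSORLG00000006791 was at 15.8 to 41.6 CPM in the females and at 4.92, 2.61, 5.39 and 3.03 CPM in the males (2.03, SE 0.27, adjusted p = 0.0034). For both, the lowest female had more than the highest male by a wide margin, and medaka135 lay with the other males.

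On the lower side, ENSORLG00000027751 was at 4.33 to 11.2 CPM in the females and at 22.2, 14.7, 35.4 and 15.5 CPM in the males (-2.12, SE 0.28, adjusted p = 0.0034). ENSORLG00000026139 was at 10.6 to 21.8 CPM in the females and at 23.96, 34.4, 70.6 and 28.7 CPM in the males (-1.83, SE 0.30, adjusted p = 0.0052). Both were highest in medaka135, and without it had -1.78 (adjusted p = 4.9e-04) and -1.36 (adjusted p = 0.0023). Groups that are separate stay so when a fish is left out. These 4 genes were called with each of the 14 fish left out in turn and with library totals alone. They were chosen by p in these same fish, so that these calls are not independent support. With the number of genes detected as a covariate, the 2 higher ones were not called (1.54, adjusted p = 0.168, and 1.48, adjusted p = 0.0995) and the 2 lower ones were (-2.58, adjusted p = 0.0029, and -2.07, adjusted p = 0.0204).

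Calls were also made among fish of like length. The 7 females of 15.5 to 20 mm span the lengths of the males, and with them against the 4 males 1279 genes were higher and 1420 lower, while 3411 were higher and 2133 lower without medaka135. In these 7 females and the 3 males *oacyl* (-1.43, adjusted p = 0.0073), *pomca* (-1.38, adjusted p = 0.0312), *crhbp* (-1.47, adjusted p = 0.0438) and *pcsk2* (-0.91, adjusted p = 0.0296) were called lower. In that fit 27.3% of the 20275 genes tested were called in either direction, 2133 genes as lower. With all 4 males none of these 4 genes was called (adjusted p from 0.0837 to 0.317). With length as a covariate over all 14, 1907 genes were higher and 1097 lower. In the 11 fish that have an RNA integrity number 2392 genes were higher and 2001 lower, and with that number as a covariate in the same fish 263 and 28. The fit of these 11 without the covariate was added after the data were seen. Only 3 females were of 72 to 74 dpf, and alone against the males they gave 0 calls with edgeR, with 2094 genes at an unadjusted p under 0.05.

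The same contrast was made in other fish at a younger and an older age. Lengths differed between the sexes there. At 57 to 59 dpf the females measured 14 to 16 mm and the males 16 to 18.5 mm. At 131 to 179 dpf they measured 21 to 23.5 mm and 22 to 28 mm, and the females spanned those ages while the males were all of 134 dpf. The part of length and age in these contrasts, and in their order over age, was not tested. At 57 to 59 dpf (4 females and 4 males), 0 genes were called higher and 6 lower, 0.0325% of the 18464 tested, with 1725 at an unadjusted p under 0.05. DESeq2 called 28 higher and 47 lower. At 131 to 179 dpf (6 females, and 4 males of 134 dpf), 16 genes were called higher (0.0807%) and 87 lower (0.439%) of 19830, and with library totals alone 54 higher and 33 lower. The number of calls was thus highest in the middle window, which also had the most females and the widest gap in genes detected. At an equal depth of 2424546 counts the means of genes detected were 21760 in females and 20369 in males at 57 to 59 dpf, 22147 and 19205 at 64 to 74 dpf, and 22380 and 21771 at 131 to 179 dpf.

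The named genes that were called lower in females at 131 to 179 dpf were largely *pomca* and 3 of the 4 melanotrope genes. There *pomca* (-2.50, SE 0.31), *crhbp* (-2.61, SE 0.26), *oacyl* (-2.04, SE 0.24) and *pcsk2* (-1.35, SE 0.25) were called lower, with adjusted p of 0.0011, 1.7e-04, 6.9e-04 and 0.0163. At 57 to 59 dpf the same genes had -0.43 (SE 0.39), -0.32 (SE 0.37), -0.33 (SE 0.32) and -0.04 (SE 0.33), and none was called. The values at 64 to 74 dpf, given above, lie between those of the other ages for each of the 4 genes, but the differences from either age were not past the threshold. Against 57 to 59 dpf the interaction terms had adjusted p from 0.639 to 0.738, and against 131 to 179 dpf from 0.259 to 0.482. Without medaka135 these ran from 0.366 to 0.529 and from 0.344 to 0.685. The melanotrope gene *pax7* did not follow this order. With all fish it had -0.45 (SE 0.20) at 57 to 59 dpf, -0.31 (SE 0.33) at 64 to 74 dpf and -0.68 (SE 0.20) at 131 to 179 dpf. It was called at none of these ages (adjusted p = 0.518, 0.516 and 0.181).

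*prl* (-1.31, SE 0.22, adjusted p = 0.0079) and *smtla* (-1.41, SE 0.28, adjusted p = 0.0273) were also called lower in the older females. Both had the same order over age. At 57 to 59 dpf *prl* had -0.63 (SE 0.37) and *smtla* -0.01 (SE 0.32), and at 64 to 74 dpf -0.96 and -0.64. The order was thus not particular to *pomca* and the melanotrope genes. The interaction terms of *prl* and *smtla* had adjusted p from 0.518 to 0.892. The older females were called higher in *tshba* (1.47, SE 0.29, adjusted p = 0.0256) and *cga* (1.17, SE 0.24, adjusted p = 0.0367). At 64 to 74 dpf the female-minus-male value of *tshba* was below 0 (-0.39 with all fish). The interaction term, the older value minus this one, was 1.84 (SE 0.56, adjusted p = 0.0851), which was not past the threshold. Without medaka135 it was 2.06 (SE 0.55, adjusted p = 0.0184), which was. For *cga* the interaction was 1.18 (SE 0.77, adjusted p = 0.410).

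**Figure D5:**
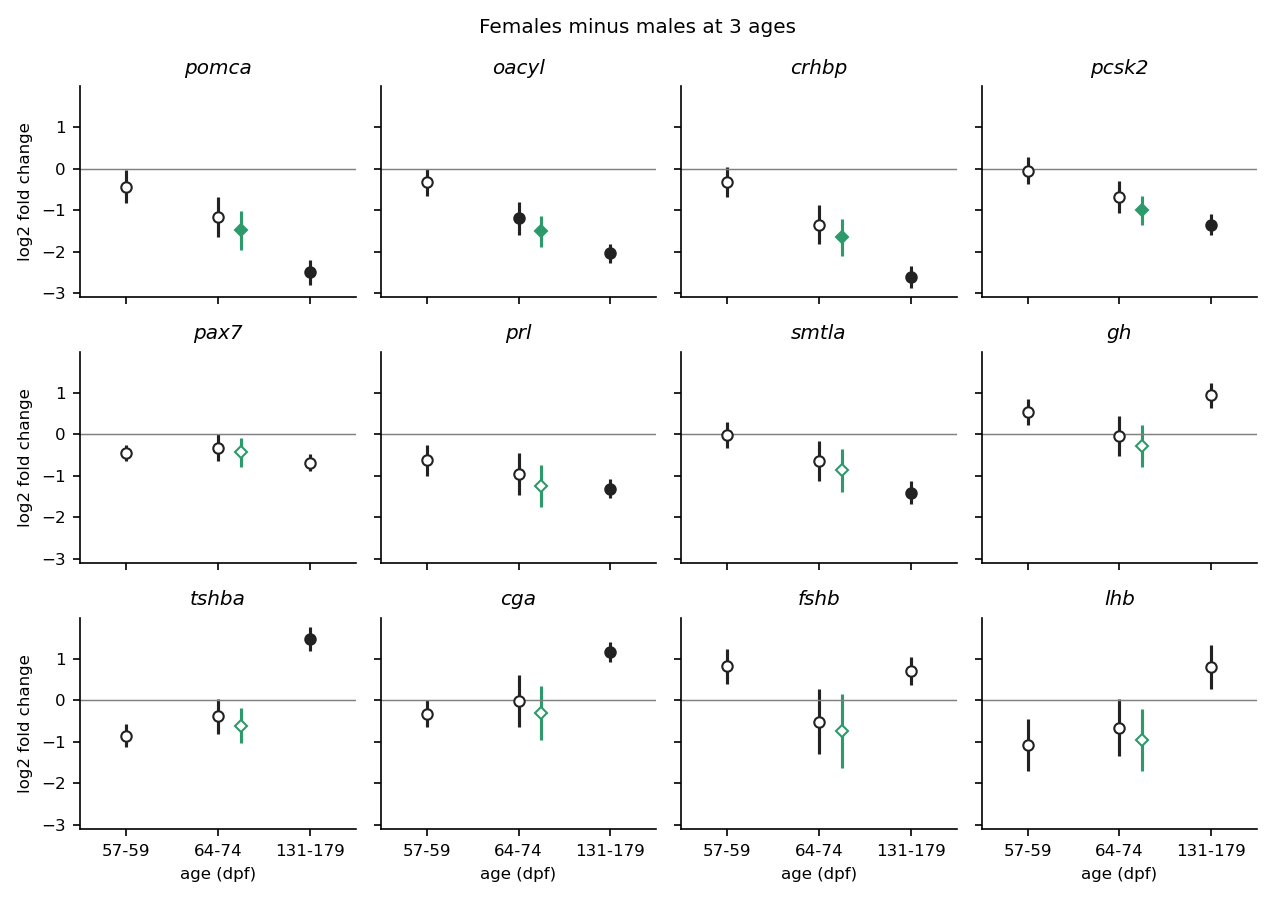
Log2 fold change, females against males, with 1 standard error, at 3 ages, each in other fish, for 12 hormone and melanotrope genes. Circles are the fits with all fish, diamonds that at 64-74 dpf without medaka135, and filled symbols have an adjusted p under 0.05. *pomca*, *oacyl*, *crhbp* and *pcsk2*, and also *prl* and *smtla*, lie nearest to 0 at 57-59 dpf and farthest below it at 131-179 dpf. With all fish *pax7* lies nearest to 0 at 64-74 dpf.

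The genes called at 64 to 74 dpf kept their direction in most cases in the other fish. Of the 2248 genes called higher, 1726 were tested at 57 to 59 dpf and 91% of them had a value above 0 there (median 0.67), against 51.8% of all genes (median 0.02). At 131 to 179 dpf it was 88% of 2121 (median 0.41), against 56.1%. Of the genes called lower, 21.6% were above 0 at 57 to 59 dpf and 38.1% at 131 to 179 dpf, and for those called lower without medaka135 it was 12.8% and 29%. Few were called there. At 131 to 179 dpf, 4 of the higher ones were called higher (0.189%, against 0.0817% of all genes tested in both), and of the lower ones 18 were called lower (1.23%, against 0.444%) and 1 higher. At 57 to 59 dpf, 2 of the lower ones were called lower (0.139%, against 0.0325%) and 0 of the higher ones were called. Genes detected differed in the same direction at all 3 ages, and its part in these shares was not tested.

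Between the 64 to 74 and 57 to 59 dpf windows the test of the difference itself called 0 of 20823 genes (edgeR interaction, 2163 at an unadjusted p under 0.05), and 5 without medaka135. Between 131 to 179 and 64 to 74 dpf it called 25 genes with a larger and 205 with a smaller female-minus-male value at the older age, and 74 and 1645 without medaka135.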

How the data were processed

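Single medaka pituitaries were sequenced after Smart-SEQ HT amplification and Nextera XT library preparation. The deposited values are whole-number counts per gene, not normalized, which the authors made against Ensembl's Hd-rR medaka genome after adjusting some gene models and adding a GFP cassette. Tools named in the submitters' processing notes are STAR 2.7.6a, SAMtools 1.10 and HTSeq 0.11.2. The study names HTSeq's intersection-nonempty mode for its single-cell reads pooled as bulk, without saying whether it held for these libraries too, and states no strand setting, so reads of overlapping or antisense genes may not be told apart. All 24364 entries carry an Ensembl identifier or are the GFP cassette, and no library was identical to another.

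The 14 libraries were fitted alone with edgeR 4.0.16 (R 4.3.3; TMM, filterByExpr, robust quasi-likelihood, Benjamini-Hochberg). SEs come from the F statistic. DESeq2 1.42.0 and limma 3.58.1 (voom with quality weights), other scalings, filters, covariates and subsets of fish, and each fish left out in turn were alternatives. Per-fish measures were compared by exact permutation (Python 3.11.15, numpy 2.4.6, scipy 1.17.1, pandas 2.3.3, figures with matplotlib 3.10.9). On simulated counts the edgeR fit recovered 14% of 100 genes changed 2-fold and 84% of 100 changed 4-fold, with 2% of its calls false. In that simulation differences of 2-fold were thus mostly missed. Few of its 20333 genes were changed, as many up as down, and no shift in composition between the sexes was put in. In the real fit 18.5% of genes were called and the TMM factors did not overlap. The shares recovered and false thus need not hold there. Total counts of 4097731 to 9348785 limit the genes near 1 CPM most.

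Genes named are the 24 that the sources pair with an identifier and that were chosen by role, the GFP cassette, and, without names, the 2 identifiers a direction with the smallest p, a mean of at least 5 CPM in a group and no overlap. The pairs for *gb*, *hbbe2*, *CD74*, *cyp19b* and *cdc45* were read from a plot of the study. The reference table (ASM223467v1, 26845 genes) holds 0 Ensembl identifiers, so that 9 lists written by symbol were not tested. The comparison, lists and genes were chosen with earlier results of these data known. Gene lengths were not used, so that the grouping of genes by mean CPM is not corrected for length. Levels of named genes are not compared with each other.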

Additional observations from a re-analysis of the deposited data

Results flagged for a closer look

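Of 64 groups of values checked for a fish far from the rest of its group (Dixon's criterion at the 95% level), 14 held one. Chance flags about 1 in 20 only among independent, normally spread values. The groups here are of unscaled CPM and share fish and related genes, so that the 14 cannot be set against that rate. In the males, medaka135 was far from the others in the share of counts in the 8 hormone genes (9.00%, others 31.8% to 35.8%), in the share of counts in genes under 10 CPM (6.38%, others 1.60% to 2.13%) and in *CD74* (6436 CPM, others 329 to 500). Male medaka136 was high in the globins *gb* (1775 CPM, others 831 to 905) and *hbbe2* (4147 CPM, others 2244 to 2292).

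Among the females, medaka54, of 74 dpf, was high in *cga* (10544 CPM, others 533 to 5122), in *nr5a1b* (663 CPM, others 73.7 to 373), in the GFP cassette (19768 CPM, others 695 to 5773) and in *CD74* (763 CPM, others 243 to 520). Female medaka82 was high in *pomca* (134349 CPM, others 33091 to 61919) and *oacyl* (1441 CPM, others 362 to 933). Female medaka26, the shortest fish, was high in *pax7* (89.8 CPM, others 17.8 to 37.5) and *mcee* (32.1 CPM, others 12.3 to 21.3), and medaka23 in *tshba* (7673 CPM, others 1606 to 4669).

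In 3 named genes the sex difference at 131 to 179 dpf differed from that at 64 to 74 dpf by edgeR's interaction term. For *CD74* the difference of log2 fold changes was 3.47 (adjusted p = 0.0461), and 1.21 (adjusted p = 0.126) without medaka135. For ENSORLG00000024846 it was -2.68 (adjusted p = 0.0091) and for ENSORLG00000006791 -1.62 (adjusted p = 0.0182), and without medaka135 these were -2.79 and -1.81 (adjusted p = 7.8e-04 and 0.0018). Both identifiers were chosen by their p at 64 to 74 dpf, and that choice alone favours a smaller value at any other age. Their interaction p thus cannot show a change with age.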

How the results depend on the processing

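The numbers of genes called moved by over 1.5 times under many settings. Genes higher in females (2248) became 4222 with voom and quality weights, 6979 with library totals alone, 4087 with all 84 libraries in 1 fit, 1279 with females of 15.5 to 20 mm, 1110 with females of 66 dpf, 0 with females of 72 to 74 dpf and 263 with RNA integrity as a covariate in the 11 fish that have it. Genes lower in females (1508) became 302 with totals alone, 983 with females of 66 dpf, 0 with those of 72 to 74 dpf, 731 with age as a covariate and 28 with RNA integrity as a covariate in those 11 fish, which without it gave 2392 and 2001. With each fish left out in turn they ran from 1399 (without medaka134) to 3951 (without medaka135) higher and from 928 (without medaka22) to 2030 (without medaka56) lower. Lower calls also fell by over 1.5 times without medaka23, medaka24, medaka71 or medaka135 (1004, 944, 982 and 967). DESeq2 gave 3355 higher and 1673 lower, and both counts were within 1.5 times with size factors of relative log expression, other filters, the hormone genes left out or length as a covariate.

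Settings added after the data were seen, without medaka135, gave 7902 higher and 41 lower with totals alone, 3961 and 995 with relative log expression, 4951 higher with DESeq2, 3411 with females of 15.5 to 20 mm and 3938 with length as a covariate. Genes with a mean of at least 10 CPM in the other 70 libraries gave 528 higher and 403 lower, and the number of genes detected as a covariate 96 higher. With that covariate *oacyl* turned from -1.20 to 0.85 (adjusted p = 0.583). The shares of counts in hormone genes and in low genes passed the threshold without medaka135 (-12.0 and 2.78 points), and the ranges over fish left out were -12.0 to -3.09 and 1.18 to 2.78. Medaka135 had been set apart by these same shares.

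At 57 to 59 dpf the 6 calls became 75 with DESeq2, 0 with totals alone (1833 at an unadjusted p under 0.05), 3 without medaka29 and 2 without medaka76, over a range of 2 to 8 with fish left out. At 131 to 179 dpf the 103 calls became 332 with DESeq2 and 63, 198, 65, 41 and 42 without medaka114, medaka119, medaka137, medaka138 and medaka139, which bound the range. The interaction of 64 to 74 with 57 to 59 dpf gave 0 to 5 calls with fish left out. That of 131 to 179 with 64 to 74 dpf, 230 calls, gave 130, 1719, 707, 153, 119, 126 and 57 without medaka27, medaka135, medaka136, medaka119, medaka138, medaka139 and medaka140. Of the values of single genes under all settings, 828 kept direction and side of the threshold, 68 lost a call, 44 gained one, 94 turned sign without a call in either fit (among them is counted *CD74* with DESeq2, which had no adjusted p), and 1, that of *oacyl* above, lost its call and turned. No paired analysis was possible because each library is of a different fish and no pairing of females with males is given. Depth limits the genes near 1 CPM, where a library holds few counts.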
